A study of Mus musculus with 26 samples.

Results

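The genes described here are the receptors, co-receptors, secreted antagonist and transcription factors of the hedgehog pathway in mesenchyme of the fetal mouse reproductive tract. The 9 genes were chosen by name (Ptch1, Smo, Hhip, Boc, Cdon, Gas1, Gli1, Gli2 and Gli3), and each matched 1 of the 41442 gene rows in both RNA-seq tables of the study. All 9 passed the filter on low counts in both tables, where 17858 and 16195 genes were tested. The study sorted cells that carry a red fluorescent reporter and measured their RNA and open chromatin.

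In the first line, Gli1-CreER;Rosa-Tomato, a recombinase under the control of Gli1 waits for tamoxifen, of which each dam received 1 mg at E12.5 and again at E13.5 (days of embryonic development), and then switches the reporter on for good. A Gli1+ cell is therefore one that expressed the driver around the injections, or a descendant of such a cell, and need not express Gli1 when it is sorted. Gli1+ cells came from the mesonephros, which carries the Wolffian and Müllerian ducts, of female (XX) and male (XY) fetuses at E14.5 and E16.5, with 3 RNA-seq libraries in each of the 4 groups. In the second line, Amhr2-Cre;Rosa-Tomato, the recombinase is under the control of Amhr2, the receptor of anti-Müllerian hormone. Amhr2+ and Gli1+ cells were sorted from the female neonatal uterus, labelled E19.5, with 3 libraries each. Every group carries the reporter and a recombinase, and the labelling protocol names tamoxifen for dams of both lines without telling them apart. Nothing in the labels says whether libraries came from separate litters, pools or single animals, nor which Gli1 allele drives the recombinase. P-values therefore measure the spread between these libraries, which may in part be technical.

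Hedgehog ligands (Shh, Ihh and Dhh) are made by epithelia and other source cells and act on nearby mesenchyme. Without ligand, the receptor Ptch1 holds the membrane protein Smo inactive, and the factors Gli2 and Gli3 are in part cut into repressors. Ligand binding to Ptch1, helped by the co-receptors Boc, Cdon and Gas1, frees Smo, and the full-length Gli proteins then switch on target genes. Gli1, Ptch1 and Hhip are themselves targets in many tissues, so their RNA is widely read as a measure of pathway output, while Ptch1 and Hhip also bind ligand and dampen the signal. In the reproductive tract, hedgehog ligand from duct epithelium is known to act on the surrounding mesenchyme.

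The libraries held 23382983 to 64602477 counts in the fetal table and 28709191 to 37541045 in the uterine table. Levels are given as CPM (counts scaled to a common, normalized library size), and 3 counts correspond to at most 0.126 CPM, so every member except Hhip in the uterus stood far above the limit of detection. The 5 mesenchyme markers (Pdgfra, Pdgfrb, Col1a1, Col3a1 and Vim) summed to 24100 to 44100 CPM in fetal libraries. The 6 duct epithelium markers summed to 13.6 to 39.1 CPM there, the 9 gonad markers to 44.9 to 72 CPM, the 5 endothelial markers to 62.1 to 124 CPM, and the erythroid markers to 4.54 to 133 CPM, the highest being in E14.5 female replicate 3. The neural, immune, germ cell and nephron lists stayed at or below 16.4 CPM. The 5 smooth muscle markers (Acta2, Tagln, Myh11, Cnn1 and Des) and several of these other lists differed between the sexes, and their values are given beside the results they accompany. In the uterus, Amhr2 measured 10.3, 7.25 and 15.8 CPM in the Amhr2+ libraries and 3.72, 5.23 and 3.35 CPM in the Gli1+ libraries. One fetal library stood apart among the members: E16.5 male replicate 1 had the lowest Ptch1, Hhip, Gli1 and Boc of its group, and results that rest on it are given with and without it.

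Ptch1, Hhip and Gli1 changed most with age among the members in females. All 3 were lower at E16.5 than at E14.5, by 8.05-fold for Ptch1, 17.1-fold for Hhip and 3.63-fold for Gli1. In males none of the 3 had a called fall. Smo, Gli2 and Gli3 were close to equal between the sexes at both ages. The co-receptors diverged from each other at E16.5, with Boc lower and Cdon higher in females than in males. In the neonatal uterus, Boc, Gas1 and Gli2 were lower in Amhr2+ than in Gli1+ cells, and Ptch1 and Hhip were low in both.

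**Figure D1:**
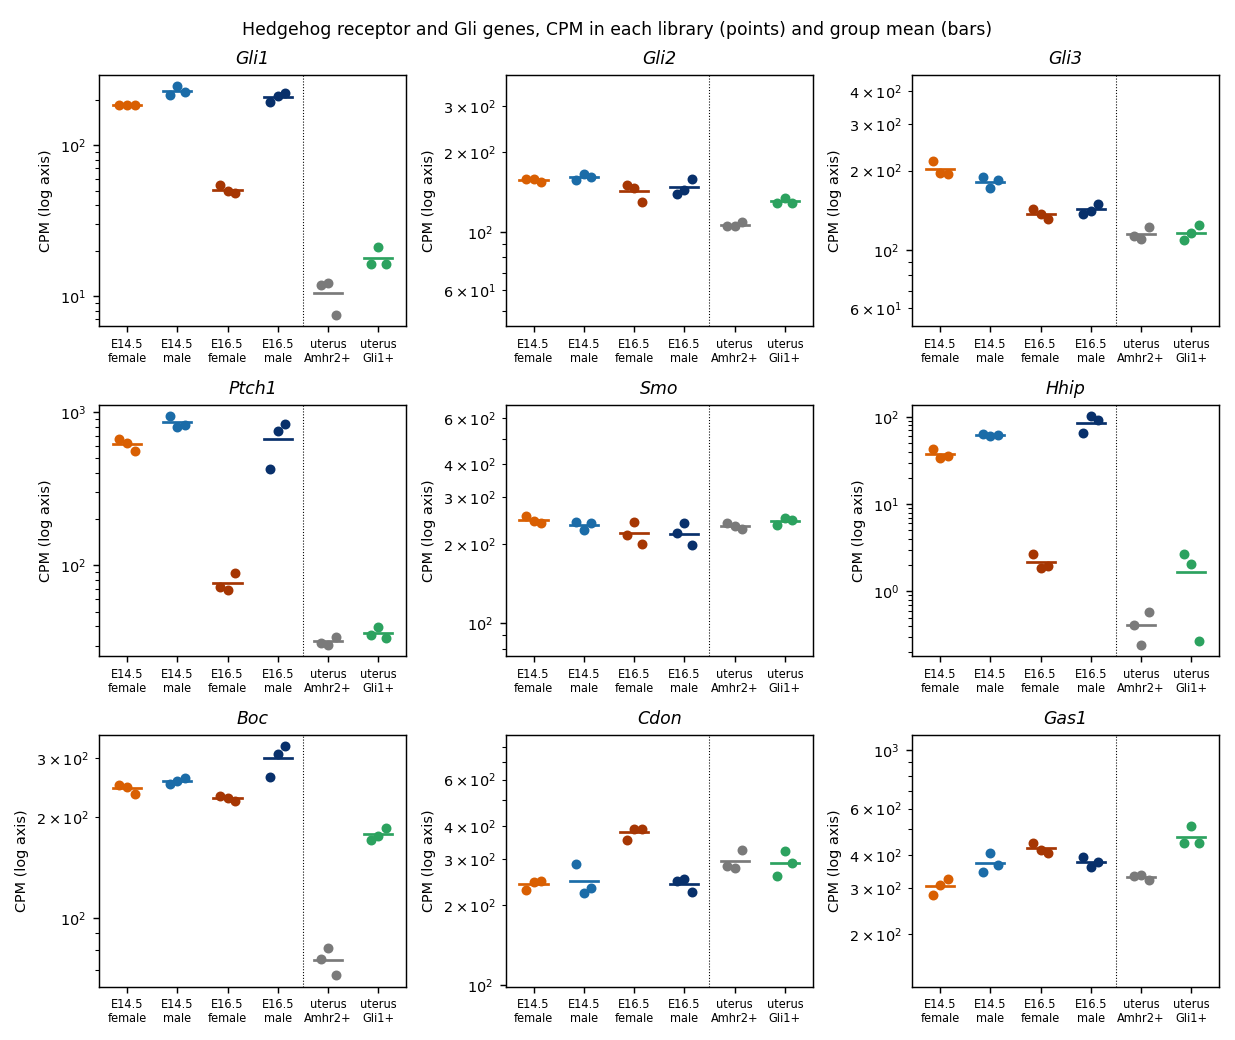
CPM of each of the 9 genes in every RNA-seq library (points, replicates 1 to 3 from left to right) with the mean of each group (bars), on log axes that differ between panels; the dotted line separates the fetal from the uterine table, which were normalized separately. Ptch1, Hhip and Gli1 drop in the E16.5 female group, while Smo and Gli2 vary little across the fetal groups.

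Ptch1, the ligand receptor that restrains Smo (chromosome 13, 63508328 to 63565735, minus strand, mm10), stood at 667, 624 and 558 CPM in the female libraries of E14.5 and at 939, 797 and 828 CPM in the male ones. By E16.5 the females gave 72.5, 68.6 and 88.7 CPM and the males 423, 751 and 838 CPM. Every E16.5 female library lay below every other fetal library, and the lowest male library, replicate 1, was still several times higher than the highest female library of that age. At E16.5 the female mean of 76.6 ± 10.7 CPM (SD, n = 3, as for all such values) stood 8.76-fold below the male mean of 671 ± 219 CPM. This log2 fold change of -3.13 (SE 0.234) had an adjusted p of 4.5e-06 in edgeR's quasi-likelihood test. Without male replicate 1 it was -3.37, with an adjusted p of 2.77e-11. Within females the log2 fold change from E14.5 to E16.5 was -3.01 (SE 0.233, adjusted p = 5.13e-06). Within males it was -0.35 (SE 0.215, adjusted p = 0.285), and -0.1 (adjusted p = 0.544) without E16.5 male replicate 1. At E14.5 all 3 female libraries already lay below all 3 male libraries, by -0.47 on the log2 scale (SE 0.215), but the adjusted p was 0.277. The E14.5 difference passed the threshold without E16.5 male replicate 1 (0.00702) and in a fit of only the 6 E14.5 libraries (0.00427). In these bulk libraries, fewer cells that express a gene and less RNA per cell cannot be told apart, for Ptch1 as for all genes below.

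The Ptch1 locus is the only one of the 9 whose open chromatin held the consensus binding sequence of the Gli proteins, so its sequences are shown here. The study deposited 1 unified list of 71040 ATAC-seq peaks (regions of accessible chromatin) for its 8 samples from E14.5 and E16.5 Gli1+ cells of both sexes. The list has no column for sample or height, so it shows where chromatin was open in at least some of these samples and cannot be compared between groups. No peak covered the annotated start of Ptch1 itself, and the nearest peak (chromosome 13, 63566196 to 63566529) began 461 bp upstream of it. That peak held the 9-base Gli motif GACCACCCA, searched on both strands, on the strand opposite to the gene, with the motif 704 bp upstream of the start. The first line below gives 300 bases of this peak, and the second gives 29 bases around the motif in another peak (63573404 to 63573870), 7734 bp upstream, which covers the start of an alternative Ptch1 transcript in GENCODE vM21. Both are read 5′ to 3′ along the gene from the GRCm38 genome, the assembly called mm10, and capitals mark the motif.
Ptch1 upstream peak, chr13:63566230-63566529, minus strand: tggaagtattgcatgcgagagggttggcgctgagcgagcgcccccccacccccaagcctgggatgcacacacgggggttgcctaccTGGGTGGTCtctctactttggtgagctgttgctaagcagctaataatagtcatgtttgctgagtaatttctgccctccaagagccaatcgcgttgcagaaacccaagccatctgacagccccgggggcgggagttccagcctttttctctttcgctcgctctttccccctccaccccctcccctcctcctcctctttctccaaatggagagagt
Ptch1 alternative start, chr13:63573455-63573483, minus strand: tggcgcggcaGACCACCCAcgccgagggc

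In the first sequence the capitals read as the reverse complement of the motif, and in the second they read in its forward direction. A motif match is a description of the letters and not evidence of binding. Measured over 300-base windows centred on peaks, the 9-base motif was present in 0.462% of all peaks of the list, and in 1 of the 56 windows of peaks within or up to 10 kb from the 9 genes (1.79%). Searched over whole peaks, 2 of the 56 held it, both at Ptch1. Its 7-base core CCACCCA, which every match of the full motif also contains, was in 11. The whole-peak share over all peaks was not computed, and the member peaks were wider than all peaks (median 284.5 against 233 bp). The core was present in 7.42% of all windows and in 6 of the 56 member windows (10.7%).

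Hhip, a membrane-bound and secreted protein that binds hedgehog ligands and withholds them from Ptch1 (chromosome 8, 79965853 to 80058006, minus strand), gave 42.4, 33.8 and 35.2 CPM in females and 64.5, 60.5 and 62.5 CPM in males at E14.5. At the later age the female values were 2.69, 1.87 and 1.95 CPM and the male values 65.7, 102 and 91 CPM. The groups did not overlap at either age, and the E16.5 females were the only fetal group in single digits. The female level was 39.7-fold lower than the male level at E16.5 (log2 fold change -5.31, SE 0.188, adjusted p = 4.14e-10), which ranked 17 by size among the 17858 tested genes. Ptch1 ranked 95 in the same comparison. At E14.5 the log2 fold change between the sexes was -0.75 (SE 0.147, adjusted p = 0.0083). Within females Hhip fell 17.1-fold with age (log2 fold change -4.1, SE 0.185, adjusted p = 3.43e-09). Within males it rose by 0.47 on the log2 scale (SE 0.144, adjusted p = 0.0328). The male rise was larger without E16.5 replicate 1 (0.63, adjusted p = 0.000387), but it missed the threshold without any single library of the other 5 (0.079 to 0.119) and with no low-count filter (0.0674).

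The start of Hhip lay inside an open-chromatin peak (80057936 to 80058164), and a second, shorter peak began 454 bp upstream. Because Hhip changed more than any other member, the 250 bases upstream of its start are printed below from the RefSeq promoter table (GRCm38.p6), 5′ to 3′ along the gene. Capitals mark the 156 bases that lie inside the peak.
Hhip upstream, chr8:80058009-80058258, minus strand: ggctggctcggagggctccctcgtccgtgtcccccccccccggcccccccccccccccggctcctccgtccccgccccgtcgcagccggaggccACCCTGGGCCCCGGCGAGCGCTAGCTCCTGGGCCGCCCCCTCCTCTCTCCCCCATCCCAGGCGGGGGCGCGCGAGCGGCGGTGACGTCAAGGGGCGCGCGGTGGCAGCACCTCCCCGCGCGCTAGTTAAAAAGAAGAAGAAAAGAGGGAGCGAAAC

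Neither the 9-base motif nor its core occurred in the 300-base promoter window of Hhip, nor in those of Gli2, Gli3, Ptch1, Smo, Cdon and Gas1, the 7 members in the promoter table. The Cdon window, however, belongs to a different start, 30518 bp inside the gene from the annotated start used elsewhere here, and the other 6 starts lie within 472 bp of the annotated ones. Over all 32851 promoters of that table the motif was present in 0.253% and the core in 9.3%. These counts say only which letters are in the windows.

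Gli1, a transcriptional activator whose own gene is a standard readout of the pathway (chromosome 10, 127329882 to 127341974, minus strand), was counted at 184, 184 and 184 CPM in females and 213, 246 and 224 CPM in males of the earlier age. The E16.5 libraries held 54, 49.7 and 48.5 CPM in females and 194, 211 and 220 CPM in males. The E16.5 female libraries stood apart from all others, and at E14.5 the sexes also did not overlap. The E16.5 level was 4.11-fold lower in females than in males (log2 fold change -2.04, SE 0.0712, adjusted p = 3.53e-11) and, within females, 3.63-fold lower than at E14.5 (-1.86, SE 0.071, adjusted p = 8.93e-11). Within males the change with age was -0.13 (SE 0.068, adjusted p = 0.195, or 0.0466 when scaled by library size alone). At E14.5 the difference of -0.31 between the sexes passed the threshold (SE 0.0683, adjusted p = 0.0125). It no longer did without any one of the 3 female libraries (0.0538 to 0.0558) or without male replicate 2 (0.0689). All fetal cells here were chosen by Gli1 activity at the time of labelling, in every group alike. Gli1 overlaps Arhgap9 on the opposite strand, and the fetal kit did not mark strand. Arhgap9 had 16 to 43 counts in the fetal libraries, which bounds what the table assigned to it but not how shared reads were treated.

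Summed smooth muscle markers were lower in females at both ages, like these 3 genes, but this sum rose with age in both sexes. Their summed level was 302 to 325 CPM in E14.5 females, 604 to 885 CPM in E14.5 males, 464 to 564 CPM in E16.5 females and 1700 to 2860 CPM in E16.5 males. The lowest E16.5 male value was that of replicate 1, the library with the lowest Ptch1. At E16.5, 4 of the 5 smooth muscle markers were lower in females, among them Acta2 (log2 fold change -2.72) and Myh11 (-4.35), and Des did not pass the test (0.06). Between the ages in females, Acta2 (0.69), Myh11 (1.26) and Des (0.65) were higher at E16.5, Tagln was lower (-0.66, adjusted p = 0.0253), as were Ptch1, Hhip and Gli1, and Cnn1 did not pass (1.03, adjusted p = 0.12). The summed duct epithelium markers also did not overlap between the sexes, with 23.6 to 27.2 CPM in females and 31.4 to 39.1 CPM in males at E14.5, and 13.6 to 18.5 and 20.2 to 22.3 CPM at E16.5. Of these 6 markers only Krt18 was called between the sexes (-0.66 and -0.65). At E16.5 the immune markers summed to 7.1 to 16.4 CPM in females and at most 3.87 CPM in males, with Csf1r (1.92) and Adgre1 (2.25) called. At the same age the endothelial markers summed to 62.1 to 76.4 CPM in females and 79.3 to 88.9 CPM in males, the gonad markers to 45.9 to 52.2 and 64.3 to 72 CPM, the erythroid markers to 29.6 to 55.7 and 15 to 19.6 CPM, and the germ cell markers to 0.505 to 0.833 and 1.5 to 2.3 CPM. The endothelial sum mixed directions, with Cdh5 (-1.53) and Kdr (-0.67) called lower and Tie1 (1.1) and Emcn (0.42) called higher in females. Of the gonad markers only Foxl2 (-0.61) and Nr5a1 (-2.37) were called, the latter at 0.091 against 0.495 CPM. No erythroid marker was called. Of the germ cell markers, Ddx4 (-1.41, 0.577 against 1.53 CPM) and Dazl (-1.73, 0.0989 against 0.348 CPM) were called lower in females. The part of these cell types in the hedgehog values was not tested. Pdgfra, a mesenchyme marker, was also lower in E16.5 females (-0.86, adjusted p = 6.85e-07), and Pdgfrb was higher (0.63, adjusted p = 2.05e-06).

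Smo, the membrane protein that Ptch1 restrains and that relays the signal (chromosome 6, 29735694 to 29761365, plus strand), showed no call in any comparison. At E14.5 its level was 255, 244 and 240 CPM in females and 243, 225 and 239 CPM in males. At E16.5 the level was 216, 242 and 199 CPM in females and 219, 239 and 198 CPM in males. The sexes overlapped at both ages. Between the E16.5 sexes the log2 fold change was 0.01 (SE 0.0787, adjusted p = 0.97). Within females the change with age was -0.17 (SE 0.0789, adjusted p = 0.105), which passed without E16.5 female replicate 2 (0.0355).

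Per length, the ratio of receptor to restrained partner changed with the receptor. Exonic lengths were taken as the union of GENCODE vM21 exons, 14.19 kb for Ptch1 and 5.62 kb for Smo. The ratio of Ptch1 to Smo in CPM per exonic kb was 0.99 ± 0.0595 in females and 1.44 ± 0.0829 in males at E14.5, and 0.14 ± 0.0328 in females and 1.23 ± 0.454 in males at E16.5. Per kb, the RNA of the receptor was thus near that of Smo in E14.5 females, above it in E14.5 males and well below it in E16.5 females. The E16.5 males spread widely, with replicate 1 at 0.768. The union counts every annotated exon, so this ratio and all values per kb below depend on that choice of length.

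Gli2, the main activator of the family, and Gli3, its main repressor, kept close to the same level in both sexes. Gli2 (chromosome 1, 118834132 to 119053619, minus strand) had levels of 159, 159 and 155 CPM (E14.5 females) and 157, 165 and 161 CPM (E14.5 males). For the later age the levels were 150, 147 and 130 CPM (females) and 139, 144 and 159 CPM (males). The Gli2 sexes overlapped at both ages, with log2 fold changes of -0.03 at E14.5 and -0.05 at E16.5 (SE 0.0665 and 0.0663). Its decline with age did not pass in females (-0.14, adjusted p = 0.0981) or in males (-0.13, adjusted p = 0.173), although library size as the only scaling gave 0.0308 and 0.0398.

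Gli3 (chromosome 13, 15463251 to 15730026, plus strand) stood at 218, 196 and 194 CPM in the female libraries of E14.5 and at 189, 172 and 184 CPM in the male ones. By E16.5 the females gave 143, 137 and 131 CPM and the males 137, 141 and 149 CPM. The decline of Gli3 with age passed the test in both sexes, and neither pair of age groups overlapped. It amounted to -0.56 on the log2 scale in females (SE 0.0648, adjusted p = 6.96e-06) and -0.35 in males (SE 0.0646, adjusted p = 0.00084). The difference between these 2 changes, -0.21 (SE 0.0913), did not pass (adjusted p = 0.176). Between the sexes Gli3 was not called at E14.5 (0.16, adjusted p = 0.196) or at E16.5 (-0.05, adjusted p = 0.61).

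With Gli2 and Gli3 near constant between sexes, the make-up of Gli RNA followed Gli1. Of the summed CPM per exonic kb of the 3 factors, Gli1 took 45.6% ± 0.877 in females and 51.8% ± 2.05 in males at E14.5, and 22.5% ± 0.589 in females and 53.5% ± 0.64 in males at E16.5. In E16.5 females Gli2 was the largest share at 45.8% ± 1.05, and Gli3 reached 31.7% ± 0.555. In E16.5 males Gli2 and Gli3 took 27.5% ± 0.519 and 19% ± 0.377. These are shares of RNA, and they do not say how much Gli2 or Gli3 protein was in the activator or the repressor form.

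**Figure D2:**
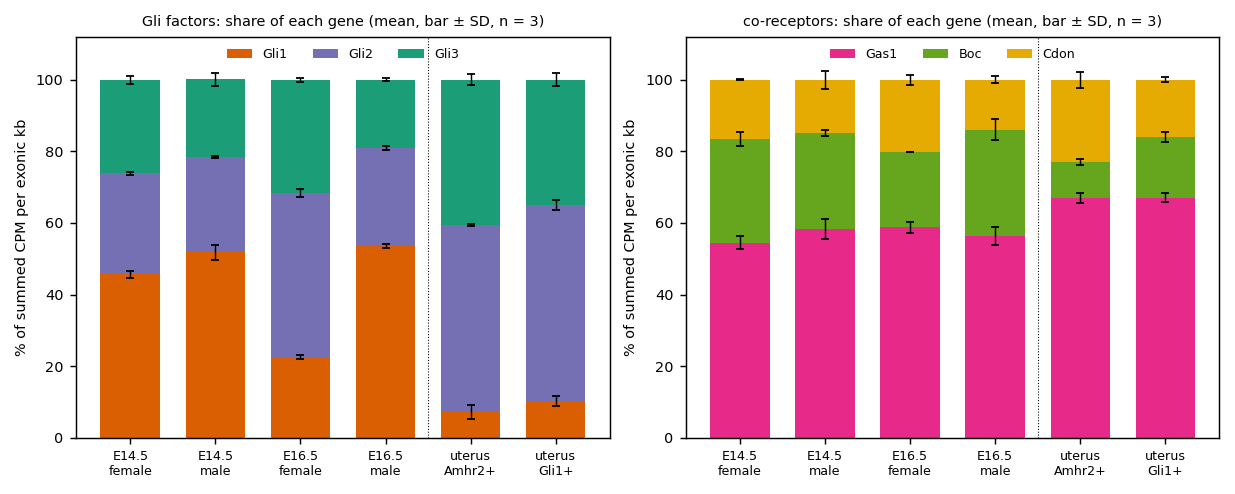
Share of each Gli factor (left) and each co-receptor (right) in the summed CPM per exonic kb of its family, as the mean of 3 libraries in each group with the SD of each share. Gli1 takes 22.5% in E16.5 females against 45.6% to 53.5% in the other fetal groups, and the Boc share is lowest in uterine Amhr2+ cells at 10.1%.

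The co-receptors showed smaller changes in opposite directions. Boc, an immunoglobulin-type membrane protein that binds ligand together with Ptch1 (chromosome 16, 44485049 to 44558897, minus strand), gave 250, 246 and 234 CPM in females and 251, 256 and 262 CPM in males at E14.5. At the later age the female values were 231, 228 and 224 CPM and the male values 264, 309 and 325 CPM. Every E16.5 male library was above every E16.5 female library. On the log2 scale the sexes differed by -0.39 (SE 0.0695, adjusted p = 0.000504), and by -0.48 without male replicate 1 (adjusted p = 1.13e-05). Within males Boc was higher at E16.5 than at E14.5 by 0.22 on the log2 scale (SE 0.0694, adjusted p = 0.0293), a call lost with library size as the only scaling (0.0616), in the fit of only the 6 male libraries (0.113), and without any single male library other than E16.5 replicate 1 (0.0561 to 0.0951).

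Cdon, the close relative of Boc (chromosome 9, 35421558 to 35507652, plus strand), was counted at 228, 245 and 247 CPM in females and 287, 223 and 233 CPM in males of the earlier age. The E16.5 libraries held 355, 391 and 390 CPM in females and 247, 251 and 225 CPM in males. Its E16.5 female libraries were the highest of all fetal libraries. Cdon was higher in females than in males at E16.5 by 0.65 on the log2 scale (SE 0.0858, adjusted p = 3.35e-05). Within females it rose by 0.66 with age (SE 0.086, adjusted p = 2.43e-05), and within males the change was -0.04 (SE 0.0856, adjusted p = 0.8).

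Gas1, a co-receptor anchored in the membrane by a lipid (chromosome 13, 60174405 to 60177365, minus strand), had levels of 282, 309 and 325 CPM (E14.5 females) and 345, 406 and 367 CPM (E14.5 males). For the later age the levels were 445, 419 and 407 CPM (females) and 394, 359 and 377 CPM (males). The females lay below the males at E14.5 and above them at E16.5, without overlap either time. At E14.5 the log2 fold change of -0.29 passed (SE 0.0737, adjusted p = 0.028), but leaving out female replicate 1 or 2 of that age (0.157 and 0.087), or male replicate 2 or 3 (0.137 and 0.0821), ended the call. At E16.5 the value of 0.17 (SE 0.0735) had an adjusted p of 0.101, and 0.0385 with the replicate number as a block. Within females Gas1 rose by 0.47 with age (SE 0.0738, adjusted p = 0.000129), and within males the change was 0.01 (SE 0.0735, adjusted p = 0.916). A gene on the opposite strand, RP24-441F24.2, overlaps Gas1 and had 53 to 142 counts in fetal libraries.

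As shares of co-receptor RNA per exonic kb, Gas1 led in every group, at 54.5% ± 1.92 to 58.8% ± 1.57 in the fetal groups. Boc and Cdon took 21% ± 0.104 and 20.2% ± 1.47 in E16.5 females, against 29.8% ± 2.91 and 13.9% ± 1 in E16.5 males. The near-equal shares of the 2 relatives in E16.5 females contrasted with a Boc excess in the other fetal groups.

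**Figure D3:**
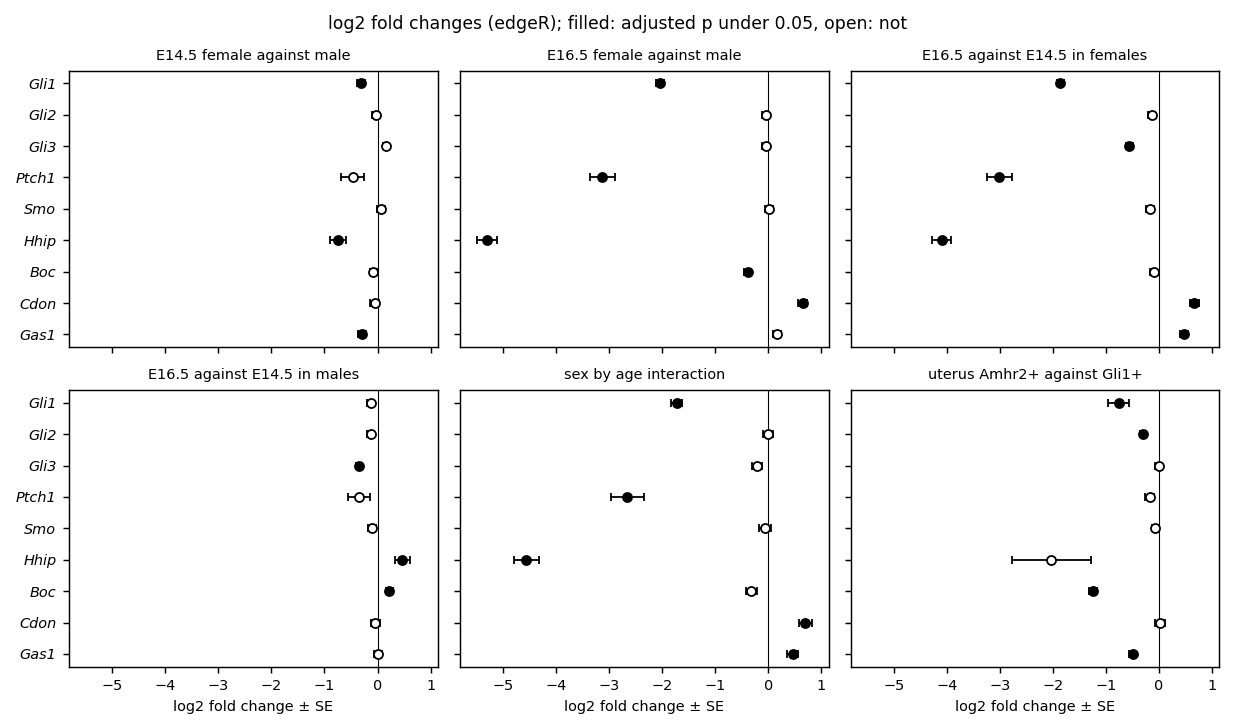
The log2 fold change of each gene with its standard error in 5 fetal contrasts and the uterine contrast, from edgeR; filled points have an adjusted p under 0.05. The E16.5 sex contrast and the female age contrast share the E16.5 female libraries, and the interaction panel shows Ptch1 at -2.66 and Hhip at -4.56.

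Counted over the 9 genes, the comparisons called different numbers of members, to be read against how many genes were called in all. Between the sexes at E14.5, 3 of 9 members were called, all lower in females (Gli1, Hhip and Gas1), where 6.28% of all tested genes were called, 2.59% higher and 3.69% lower. Between the sexes at E16.5, 5 of 9 were called, with Gli1, Ptch1, Hhip and Boc lower and Cdon higher in females, against 27.3% of all tested genes (13.2% higher and 14.1% lower). Within females between the ages, 6 of 9 were called, 4 lower (Gli1, Gli3, Ptch1 and Hhip) and 2 higher (Cdon and Gas1) at E16.5, against 39.6% (21% higher and 18.6% lower). Within males, 3 of 9 were called, with Gli3 lower and Hhip and Boc higher, against 23.3% (13.1% higher and 10.2% lower). The latter count went down to 1, Gli3 alone, without any single male library other than E16.5 replicate 1. The count of 3 at E14.5 went down to 1, Hhip alone, without E14.5 female replicate 1 or 2 or male replicate 2. The CPM ranges of the groups did not overlap for 6 members between the sexes at E14.5, where this held for 27.2% of all tested genes, and for 6 at E16.5 (38.3%). Between the ages it held for 8 members in females (56.6%) and for 3 in males (34.9%). The median absolute log2 fold change of the members was 0.39 between the sexes at E16.5, where that of all tested genes was 0.21, and 0.56 within females, where that of all genes was 0.29. Because the E16.5 female libraries enter both of these comparisons, they are not independent of each other.

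The difference in the sex effect between the ages was tested as an interaction, which passed for 5 of 9 members, 2 positive and 3 negative, and for 10% of all tested genes (4.66% positive and 5.36% negative). From E14.5 to E16.5 the female-against-male log2 fold change shifted by -4.56 for Hhip, -2.66 for Ptch1 and -1.73 for Gli1, and by 0.7 for Cdon and 0.46 for Gas1. For Smo and Gli2 the shift was -0.06 (SE 0.111) and -0.01 (SE 0.0939). Boc shifted by -0.32 (SE 0.0982) with an adjusted p of 0.0526. This value crossed the threshold under other settings, among them DESeq2 (0.0181), the replicate block (0.0421) and the fit without E16.5 male replicate 1 (0.0023).

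Ordered by CPM per exonic kb, Gas1 was the most abundant member and Hhip the least abundant in all 4 fetal groups. In E14.5 females the order below Gas1 (103 ± 7.31 CPM per kb) was Boc, Smo, Ptch1, Gli1, Cdon, Gli2, Gli3 and Hhip (4.09 ± 0.507), in which Smo and Ptch1, and Gli2 and Gli3, overlapped. In E14.5 males Ptch1 stood next to Gas1 at 60.3 ± 5.27 CPM per kb, overlapping Boc at 57.6 ± 1.23, and Gli1 overlapped Smo. In E16.5 males the order was Gas1, Boc, Ptch1, Gli1, Smo, Cdon, Gli2, Gli3 and Hhip, in which Ptch1 overlapped Gli1 and Gli1 overlapped Smo. In E16.5 females Ptch1 (5.4 ± 0.752), Gli1 (10.2 ± 0.577) and Hhip (0.239 ± 0.0501) took the last 3 places, below Gli3 at 14.3 ± 0.618. The other members of that group kept the order Gas1, Boc, Cdon, Smo and Gli2, in which only Boc and Cdon overlapped.

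The genes whose fetal pattern was most like those of Gli1, Ptch1 and Hhip were found by the root mean square difference of log2 CPM over the 12 fetal libraries, after centring each gene on its own mean, among 11714 genes. For Gli1 the nearest were Pltp (difference 0.153), Trib2 (0.184), Enpep (0.185) and Cd40 (0.204). Trib2 averaged 265, 343, 59 and 261 CPM, and Enpep 214, 257, 46.2 and 246 CPM, in E14.5 females, E14.5 males, E16.5 females and E16.5 males. For Ptch1 the nearest were Nalcn (0.279), Itga4 (0.375), Epha8 (0.395) and Enpep (0.43). For Hhip they were Lrrc55 (0.42), Fstl4 (0.733), Epha8 (0.813) and Nalcn (0.861). Among the members, Ptch1 lay at 0.809 from Hhip, closer than Epha8 and Nalcn, and Gli1 at 1.24. Nalcn and Epha8 were thus on the lists of both Ptch1 and Hhip, as Enpep was on those of Gli1 and Ptch1. No candidate came as close to Hhip as Pltp came to Gli1. The libraries are shared by all these genes, and a small difference describes a like pattern only.

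A list of 60 other hedgehog pathway genes gave the surroundings of the members, and 55 of them were tested in the fetal table. The ligands themselves were near the limit of detection in these mesenchymal sorts. Group means were at most 0.135 CPM for Shh, 0.493 CPM for Ihh and 0.0841 CPM for Dhh in fetal cells. Of the 3 ligands only Ihh passed the filter, and it was not called in any fetal comparison.

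At E16.5, 24 of the 55 tested pathway genes differed between the sexes, 11 higher and 13 lower in females, where 27.3% of all tested genes were called (13.2% higher and 14.1% lower). All 3 listed receptors and binding proteins passed. Lrp2, a large endocytic receptor, was lower in females (3.41 against 7.38 CPM, log2 fold change -1.11, adjusted p = 0.0187), a call lost with no low-count filter (0.0697), with only the 6 libraries (0.0745) and without female replicate 1 (0.0731) or male replicate 2 (0.065). Gpc3 was lower (-0.59) and Gpc4 higher (0.49), both being cell-surface glypicans. Of the 18 genes of the cilium and signal relay, 5 were higher in females, by 0.2 to 0.31, and none lower, a share of called genes close to that of all tested genes. One of them was Sufu, which holds Gli proteins inactive (0.2, adjusted p = 0.0135), a call that ended with no low-count filter (0.0542) and without female replicate 1 (0.0704) or 2 (0.0831). The cilium protein Kif7 (0.06, adjusted p = 0.599) and the receptor Gpr161 (-0.15, adjusted p = 0.319) did not pass, although Gpr161 did without E16.5 male replicate 1 (0.0135). Of the 11 genes of Gli processing, 3 were lower (Cul1, Cul3 and Itch).

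Among the 17 tested genes that are widely described as hedgehog targets in mesenchyme, 8 were lower and 3 higher in E16.5 females. Of all tested genes, 14.1% were called lower and 13.2% higher in that comparison. The median log2 fold change was -0.5 for the targets against 0.01 for all tested genes. Bmp4, a signalling protein of the BMP family, measured 12, 13.5 and 9.65 CPM in females and 56.7, 76.8 and 61.5 CPM in males, without overlap. Its log2 fold change was -2.47 (adjusted p = 4.93e-08). Foxd2, a forkhead factor, was lower in females (3.18 against 10.4 CPM, -1.71, adjusted p = 0.000359). Igf1, a growth factor on the same list, went the other way, with 714, 680 and 758 CPM in females and 342, 369 and 352 CPM in males (1.02 on the log2 scale, adjusted p = 1.38e-07). Several of these genes answer to other signals too, and their direction is not independent evidence on the pathway.

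Between the ages within females, 26 of 55 pathway genes changed, 21 lower and 5 higher at E16.5, where 39.6% of all tested genes were called (18.6% lower and 21% higher). They included Sfrp1, a secreted Wnt antagonist (-0.98), Bmp4 (-0.97) and Vegfa, a blood vessel growth factor (-0.93), which fell, and Igf1 (1.61), which rose. Of the 17 targets, 11 fell and 2 rose, and of the 11 processing genes 6 fell. Within males 12 of 55 changed, 9 lower and 3 higher, a share slightly below the 23.3% of all tested genes (10.2% lower and 13.1% higher). Scube1 and Scube3, secreted proteins related to Scube2, which helps to release hedgehog from producing cells, fell by 0.82 and 0.79 on the log2 scale, and so did Vegfa (-0.76). Bmp4 rose in males (0.76, adjusted p = 0.00145) while it fell in females, and its interaction was -1.73 (adjusted p = 0.000114). The interaction also passed for Igf1 (0.93), for Ccnd2, a cell cycle gene (-0.82), and for Sfrp1 (-0.78). In all it passed for 10 of 55 genes, 7 negative and 3 positive, where it passed for 10% of all tested genes (5.36% negative and 4.66% positive).

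Between the sexes at E14.5, 6 of 55 pathway genes were called, 5 higher and 1 lower in females, where 6.28% of all tested genes were called (2.59% higher and 3.69% lower). The count was 3 without any single E14.5 library other than male replicate 1, 11 with DESeq2, and 12 with the replicate block or with only the 6 libraries. The lower one was Bmp4 (-0.75, adjusted p = 0.00737). Prdm1, a transcriptional repressor, was higher (0.94, adjusted p = 0.023), but the call was lost with no low-count filter (0.0873) and without any of 5 of the 6 E14.5 libraries (0.0557 to 0.113). Vegfa was higher as well (0.48, adjusted p = 0.00309), and so was Ccnd2 (0.32, adjusted p = 0.0306), whose call was lost without any single E14.5 library other than male replicate 1 (0.0762 to 0.127).

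**Figure D4:**
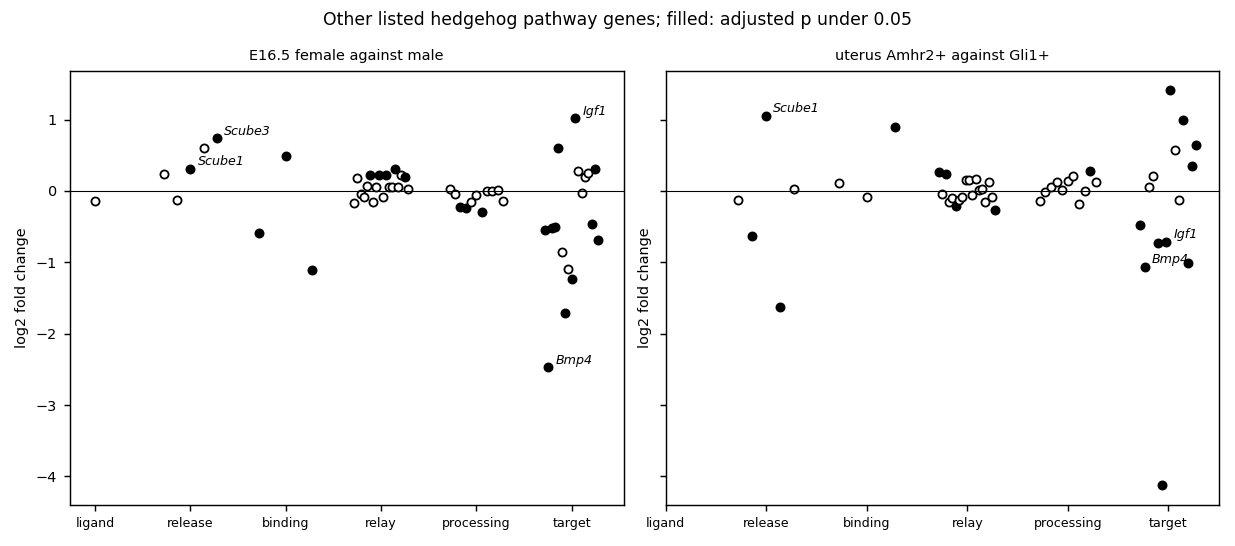
The log2 fold change of each tested gene of the 60-gene pathway list, grouped by role, for female against male at E16.5 (left) and uterine Amhr2+ against Gli1+ (right); filled points have an adjusted p under 0.05. Bmp4 is the lowest point on the left at -2.47, and the lowest on the right, at -4.12, is Foxd2, which is near the limit of detection in Amhr2+ cells.

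In the neonatal uterus, Ptch1, Hhip and Gli1 were low in both sorted populations. The uterine table was made with another kit and was normalized by itself, so its levels are not compared with the fetal ones by any test. Ptch1 measured 31.3, 30.3 and 34.2 CPM in Amhr2+ and 35.3, 39.6 and 33.7 CPM in Gli1+ cells. These ranges overlapped, and the log2 fold change was -0.18 (SE 0.0858, adjusted p = 0.16). Hhip measured 0.415, 0.243 and 0.576 CPM in Amhr2+ cells, from 16, 9 and 17 counts, and 2.65, 2.07 and 0.271 CPM in Gli1+ cells, from 89, 67 and 9 counts. The third Gli1+ library lay within the Amhr2+ range, while the first and second were above it. The log2 fold change was -2.03 (SE 0.748, adjusted p = 0.0907) over all libraries, -2.54 (adjusted p = 0.00311) without Gli1+ replicate 3, and DESeq2 gave an adjusted p of 0.0169.

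Gli1 measured 11.8, 12.3 and 7.53 CPM in Amhr2+ and 16.2, 21.2 and 16.3 CPM in Gli1+ cells. Since Gli1 drives the recombinase that defined the Gli1+ sort, this difference (-0.76 on the log2 scale) is given as a description. Smo measured 240, 233 and 227 CPM in Amhr2+ and 236, 251 and 246 CPM in Gli1+ cells, overlapping (-0.07 on the log2 scale, SE 0.0566, adjusted p = 0.428). The ratio of Ptch1 to Smo per exonic kb was 0.0543 ± 0.00467 in Amhr2+ and 0.0587 ± 0.00417 in Gli1+ cells.

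Boc separated the uterine populations most among the members that passed the test. It measured 75.3, 81.4 and 67.5 CPM in Amhr2+ and 171, 176 and 186 CPM in Gli1+ cells, 2.38-fold apart with no overlap (log2 fold change -1.25, SE 0.0779, adjusted p = 3.06e-05). Gas1 measured 334, 336 and 321 CPM in Amhr2+ and 444, 513 and 446 CPM in Gli1+ cells, a 1.42-fold difference in the same direction (-0.5, SE 0.0724, adjusted p = 0.0019). Cdon, at 281, 276 and 324 CPM in Amhr2+ and 259, 321 and 290 CPM in Gli1+ cells, overlapped (0.02, SE 0.0945, adjusted p = 0.909). Gli2 measured 105, 105 and 109 CPM in Amhr2+ and 129, 134 and 129 CPM in Gli1+ cells, again without overlap (-0.3, SE 0.0529, adjusted p = 0.00508). Gli3, at 113, 110 and 122 CPM in Amhr2+ and 109, 116 and 124 CPM in Gli1+ cells, did not differ beyond its spread (-0.01, SE 0.0704, adjusted p = 0.91).

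In all, 4 of 9 members were called in the uterus, all lower in Amhr2+ cells, where 23.9% of all 16195 tested genes were called, 10.1% higher and 13.7% lower. The CPM of the 2 populations did not overlap for those 4 members, nor for 44.4% of all tested genes. The 4 are Boc, Gas1, Gli2 and Gli1, and the driver of the Gli1+ sort is Gli1 itself, so its place in both counts is a description only. Gli1 also did not pass when Amhr2+ replicate 1 (0.0516) or Gli1+ replicate 1 (0.0514) or 2 (0.0698) was left out. By shares of RNA per exonic kb, Boc took 10.1% ± 0.873 of the co-receptors in Amhr2+ and 17% ± 1.35 in Gli1+ cells, and Gas1 took 67% ± 1.37 and 67.1% ± 1.38. Among the Gli factors, Gli2 held the largest share in both, at 52.3% ± 0.38 and 54.8% ± 1.35, and Gli1 held 7.16% ± 1.87 and 10.3% ± 1.35. The order of levels per kb in Amhr2+ cells was Gas1, Smo, Cdon, Boc, Gli2, Gli3, Ptch1, Gli1 and Hhip. In Gli1+ cells it was Gas1, Smo, Boc, Cdon, Gli2, Gli3, Gli1, Ptch1 and Hhip.

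Cell type markers also differed between the uterine sorts. The mesenchyme markers summed to 21100 to 23000 CPM in Amhr2+ and 38200 to 42100 CPM in Gli1+ libraries, with Col1a1 (-0.98), Col3a1 (-0.79) and Vim (-0.47) lower in Amhr2+ cells and Pdgfra and Pdgfrb not called. The smooth muscle markers summed to 1120 to 1760 CPM and 2090 to 2320 CPM. Epithelial markers summed to 49.2 to 49.8 CPM and 17.9 to 28.8 CPM. For gonad markers the sums were 72.7 to 121 CPM and 63 to 66.1 CPM. Endothelial markers were lower in Amhr2+ libraries (23.3 to 29.3 against 35 to 43.5 CPM). So were erythroid (1.75 to 2.54 against 7.84 to 8.67 CPM) and germ cell markers (0.475 to 0.917 against 5.28 to 6.53 CPM). Neural sums were at least 10.6 CPM in Amhr2+ and at most 9.86 CPM in Gli1+ libraries. Immune and nephron sums overlapped. The part of these differences in the Boc, Gas1 and Gli2 values was not tested.

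Of the other pathway genes, 51 were tested in the uterus and 19 were called, 9 higher and 10 lower in Amhr2+ cells, against 23.9% of all tested genes (10.1% higher and 13.7% lower). The count was 12 without replicate 1 of either population. Scube1 was higher in Amhr2+ cells, at 351, 373 and 305 CPM against 162, 181 and 155 CPM (1.05, adjusted p = 0.000157). Bmp4 was lower (-1.06, adjusted p = 0.00294), as was Sfrp1 (-1.01, adjusted p = 0.000125). Mycn, a growth-promoting transcription factor, was higher (1.41, adjusted p = 0.0214), which did not pass when Amhr2+ replicate 1 (0.0533) or Gli1+ replicate 2 (0.0648) or 3 (0.0602) was left out. Of the targets, 10 of 14 were called, 4 higher and 6 lower. Shh had no count in any of the 6 uterine libraries, where 3 counts would be at most 0.102 CPM, and none of the 3 ligands passed the filter.

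Open chromatin was found at all 9 genes. Each had at least 1 peak of the unified list within 1 kb of its annotated start, as did 79.1% of the tested fetal genes with a position. The start itself lay inside a peak for 7 of them, and outside for Gli1, whose nearest peak began 8 bp inside the gene, and for Ptch1. The number of peaks inside the gene body ranged from 1 at Gas1, which is 3.0 kb long, to 14 at Gli2, which is 219.5 kb long. Gli3 had 9 peaks in 266.8 kb, Boc 8 in 73.8 kb, Cdon and Ptch1 4 each, Gli1 and Smo 3 each, and Hhip 2 in 92.2 kb. Most of the peaks away from the start lay in introns by the annotation.

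**Figure D5:**
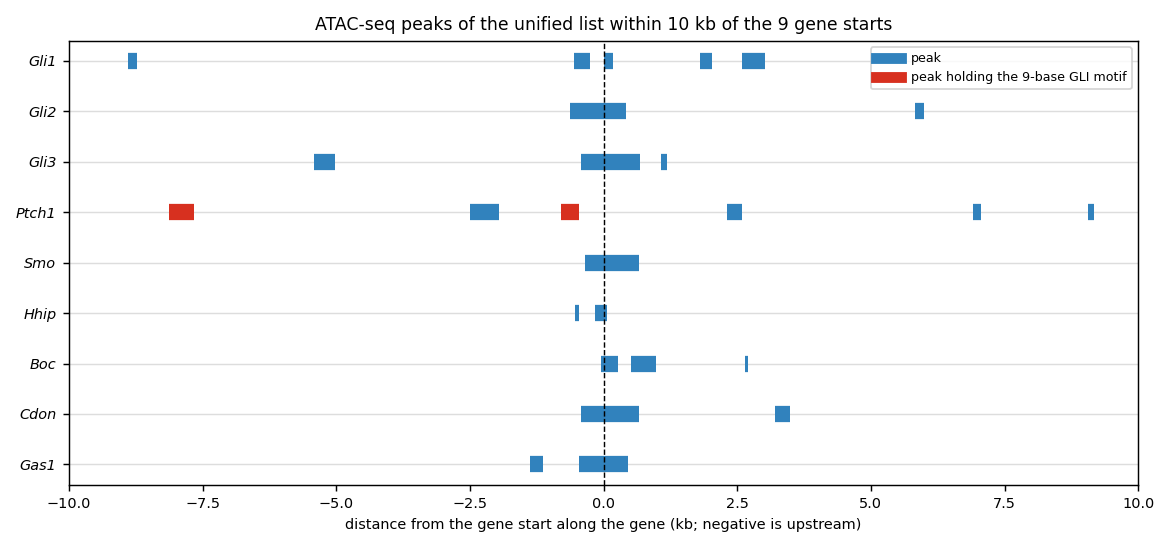
Peaks of the unified ATAC-seq list within 10 kb of the annotated start of each gene, drawn to scale as distance along the gene, with negative values upstream. Peaks in red, both upstream of Ptch1, hold the 9-base Gli motif; the starts of 7 genes lie inside a peak, and those of Gli1 and Ptch1 do not.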

How the data were processed

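RNA was measured in 18 libraries and open chromatin in 8 ATAC-seq samples. The authors deposited 2 tables of raw read counts per gene and 1 list of peak positions (other, with no score); mm10 coordinates are per the file headers. Per the submitters' processing notes, the tools were STAR 2.5, featureCounts, Subread 1.5.0-p1, Bowtie 1.2, SAMtools 1.3.1, Picard, bedtools 2.24.0 and MACS2 2.1.1, with no role or order given. Per the labels' protocols the fetal kit was non-stranded and the uterine kit stranded; the counting strand, the annotation and peak settings are not given in the sources used here. Opposite-strand genes overlap Gli1, Gli2, Hhip, Cdon and Gas1, whose counts are uncertain to that extent.

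From the deposited counts, each table was fitted by itself with edgeR 4.0.16 in R 4.3.3 (filterByExpr by group, TMM, robust quasi-likelihood test). A Benjamini-Hochberg adjustment ran over all tested genes, and 0.05 was the threshold. A single model of 4 group means gave the fetal contrasts. The standard error is the log2 fold change divided by the root of F. CPM uses the TMM-scaled library size. Limits from 3 counts cover counting error only. The test was checked on simulated counts with the same dispersion for every gene. That check does not cover an outlying library or deviations shared by same-numbered libraries.

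All 9 members are named in each comparison. From the pathway list the text names the ligands, Sufu, Kif7, Gpr161 and, in each comparison, the 4 called genes with the largest change among those with at least 5 CPM in the higher group; further genes were named after their values were seen. Some results are not reported here. Nearest patterns use log2 CPM with a prior count of 2. The members and lists were chosen with earlier results of these data known.

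Groups and replicate numbers came from the sample titles. Same-numbered E16.5 libraries of the 2 sexes deviated together (r = 0.28, 0.11 and 0.4 across genes, all above 0.1). At that age female replicate 2 and male replicate 1 also gave 0.11. The reported tests compare group means without pairing, and the numbers entered only as the replicate block among the alternatives. No label ties a number to a litter. Alternatives were library-size scaling, DESeq2 1.42.0, no low-count filter, a replicate block, the 6 libraries of a contrast alone, and each library left out in turn.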

Additional observations from a re-analysis of the deposited data

Results flagged for a closer look

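For 5 members the difference between the sexes was itself different at the 2 ages, by the interaction term of the fetal model. The change from E14.5 to E16.5 in the female-against-male log2 fold change was -1.73 for Gli1 (adjusted p = 3.91e-08), -2.66 for Ptch1 (0.00042) and -4.56 for Hhip (1.05e-07). It was 0.7 for Cdon (0.00133) and 0.46 for Gas1 (0.0089). Without E16.5 male replicate 1 the values were -1.78, -2.9, -4.72, 0.71 and 0.49, and all 5 still passed. The summed smooth muscle markers rose from at most 885 to at least 1700 CPM in males and from at most 325 to at least 464 CPM in females between the same ages. Their part in the 5 values was not tested.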

How the results depend on the processing

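Of 846 values of single members under an alternative, 782 kept their direction and side of the threshold, 25 lost the call and 14 gained it. The remaining 25 changed sign without a call in either fit; they belong to 10 member results of at most 0.07 in size on the log2 scale (Smo, Gli2, Gli3, Cdon and Gas1). No called value changed direction. With each library left out, the number of members called ranged from 1 to 4 between the sexes at E14.5, was 5 at E16.5, and ranged from 6 to 7 with age in females, 1 to 3 with age in males, 5 to 6 for the interaction and 3 to 5 in the uterus. For the pathway list these ranges were 3 to 9, 17 to 26, 21 to 27, 9 to 13, 9 to 13 and 12 to 17. The count of 12 in the uterus came without Amhr2+ replicate 1 and without Gli1+ replicate 1. The 6 pathway genes called at E14.5 became 11 with DESeq2, 12 with the replicate block and 12 in the fit of only the 6 libraries. With the replicate block, 3, 6, 6, 2, 6 and 4 members were called in the same order of contrasts, and among members it changed only the calls of Gas1 between the sexes at E16.5 (gained), Boc with age in males (lost, 0.0545) and Boc in the interaction (gained). By the limit of 0.1, numbers did not pair the libraries at E14.5 (r = 0.073, 0.05 and 0.051) or between ages. In the uterus, same-numbered libraries gave 0.0018 for replicate 1 but 0.22 and 0.24 for replicates 2 and 3, above that limit. Differently numbered uterine libraries gave -0.24 to 0.13. With the replicate block, 4725 of all tested genes were called in the uterus. All tested genes gave 1121 calls between the sexes at E14.5 (553 to 1678 with a library left out), 1790 for the interaction (2687 without E16.5 male replicate 1) and 3866 in the uterus (1949 without Amhr2+ replicate 1, 2521 without Gli1+ replicate 1). Scaled by library size alone, the split was 3130 higher and 3924 lower with age in females, 1847 and 2641 in males and 2849 and 1640 in the uterus, where TMM gave 3746 and 3322, 2340 and 1828, and 1642 and 2224. Widening the window from 1 to 10 kb left 9 members with a peak; asking for a peak over the start left 7. The 7-base core was in 11 member peaks and the full motif in 2. Where a cause of a change is not stated, it was not tested. Depth limits Hhip in the uterus and the ligands, which rest on few counts.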
